A study of Mus musculus with 10 samples.

Results

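The circular RNAs (circRNAs) of mouse retinae at postnatal day 30 (P30) were compared with those at P14, to ask how they differ between the time around eye opening and the mature retina. Taken were all circRNAs of the deposited table that stood above 0 in at least 1 of 4 libraries, which were P30 replicates 2 and 3 and P14 replicates 1 and 3. This gave 5065 of the 9029 circRNAs in the table, of which 740 carried a database ID and 4325 were named by chromosome, position and strand. All libraries came from untreated C57BL/6 mice, with ribosome-depleted total RNA of retina. A further 6 libraries of E18.5, P1 and P7 entered the fit. They shared in the choice of circRNAs to test, the scaling and the estimate of the spread, and they show where a level came from. The labels name neither animals nor pools, so a p-value reflects no more than the scatter among these libraries, which may be technical.

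A circRNA forms when a splice donor is joined to an acceptor upstream of it, a reaction called back-splicing. The closed loop has no free end for exonucleases, so circRNAs are long-lived and tend to accumulate in cells that no longer divide, neurons above all. Several circRNAs can arise from the same gene by use of other donors or acceptors. After eye opening the retina produces no new neurons, while outer segments and synapses go on maturing. In a bulk library, fewer cells of a type and less RNA per cell cannot be told apart.

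The names carry no gene symbols. Positions in the table are of mm9, which is not the build of the annotation at hand, so no circRNA was assigned to a gene, no cell-type marker could be checked and no sequence was read. Spans below are distances on the genome between the 2 back-splice ends, introns included, and not lengths of the RNA.

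More circRNAs were listed (that is, stood above 0) at P30 than at P14 as deposited, and the ratio was smaller once the larger totals at P30 were matched. The P30 libraries held 28104.5 and 28658 estimated counts, against 11773.5 and 17048 in the P14 libraries. They listed 2800 and 2784 circRNAs at P30, against 1397 and 1814 at P14, a ratio of means of 1.74. When each library was brought to the smallest total of 11723 whole counts and 2 counts were asked for, as in the deposited table, 1737.6 and 1756.9 circRNAs were expected at P30 against 1397 and 1545.8 at P14. The ratio was then 1.19. The groups still did not overlap, but with 2 libraries against 2 the smallest two-sided p of an exact permutation test is 0.333, so no difference of this kind can pass a threshold of 0.05. The ratio as deposited was 1.54 without P14 replicate 1, the shallowest of the 4 libraries, and 2.00 without P14 replicate 3.

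**Figure D1:**
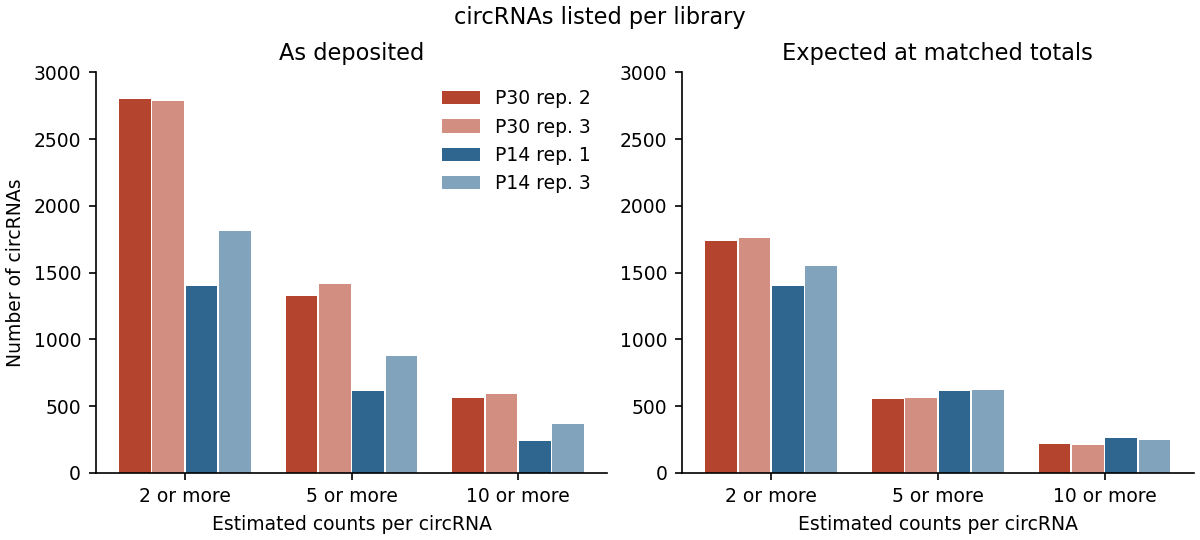
Number of circRNAs with at least 2, 5 or 10 estimated counts in each P30 and P14 library, as deposited (left) and expected after bringing every library to 11723 counts (right). Bars are single libraries; at matched totals both P30 bars are above both P14 bars at 2 or more counts and below them at 5 or more and at 10 or more.

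At matched totals the excess at P30 lay in the rare circRNAs. With at least 5 counts, 551 and 560.5 circRNAs were expected at P30 against 611 and 622.6 at P14, and with at least 10 counts 216.7 and 209 against 259 and 244.2. By these numbers the counts were spread more evenly at P30. In each library as deposited, the top 10 circRNAs by count took 14.1% and 13.6% of the total at P30, against 18.6% and 17.0% at P14. The number of circRNAs that together made up 50% of the counts was 243 and 249 at P30, against 157 and 190 at P14. The most abundant circRNA alone took 3.70% and 3.25% at P30 and 6.40% and 6.05% at P14. These shares and numbers as deposited follow the order of the library totals, so depth and age cannot be told apart in them.

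Most members were rare and seen only once. Of the 5065 circRNAs, 3016 (59.5%) were listed in 1 library only, with a median of 3 counts, and 580 (11.5%) were listed in all 4. Those 580 held 59.5% and 59.3% of the counts at P30 and 72.4% and 65.7% at P14. Both P30 libraries listed 1424 circRNAs and both P14 libraries 765, so the 580 made up 40.7% of the P30 set and 75.8% of the P14 set. At matched totals the shared circRNAs were expected to be 52.0% of the P30 set and 64.7% of the P14 set, so the overlap was less lopsided at equal depth. Another 450 were listed in both P30 libraries and in neither P14 library, and 58 in both P14 libraries and in neither P30 library. At matched totals these 2 numbers were expected to be 206.4 and 99.8, a smaller imbalance than as deposited. No upper limit was drawn from a 0, because the table holds no value between 0 and 2.

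The age at which a circRNA was first listed depends on depth, since the P30 libraries were the deepest and the 6 earlier ones shallower than all 4 compared here. Of the members, 2125 (42.0%) stood above 0 at no age before P30, and they held 17.1% and 18.4% of the P30 counts. The 881 that were already listed at E18.5 made up 17.4% of the members, yet they held 53.8% and 53.1% of the counts at P30 and 63.5% and 59.4% at P14. CircRNAs at 0 in the 6 earlier libraries took 27.2% and 27.7% of the counts at P30, against 17.8% and 20.8% at P14. By number, with the P30 and P14 libraries brought to matched totals but the earlier ones as deposited, they made up 46.3% and 47.7% of the circRNAs expected at P30 and 37.9% and 39.0% at P14.

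The make-up of the counts moved towards circRNAs with long spans. Coordinate-named circRNAs spanning 10 to 50 kb held 29.3% and 28.6% of the counts at P30, against 22.3% and 22.4% at P14, a difference of 6.57 percentage points. Those of 50 kb or more held 4.47% and 5.45% at P30 and 2.88% and 3.35% at P14. Spans under 1 kb went the other way, with 2.58% and 3.30% at P30 against 3.77% and 3.70% at P14, and spans of 1 to 10 kb overlapped between the ages (22.4% and 22.1% against 19.8% and 22.5%). These shares are of all counts, including those under database IDs, which have no span here and whose share fell. Of the counts of coordinate-named circRNAs alone, spans of 1 to 10 kb held 38.1% and 37.2% at P30 against 40.6% and 43.3% at P14, without overlap, and spans under 1 kb held 4.40% and 5.55% against 7.73% and 7.13%. On that base spans of 10 to 50 kb held 49.9% and 48.1% at P30 against 45.7% and 43.1% at P14, and spans of 50 kb or more 7.61% and 9.19% against 5.89% and 6.45%. Counted by number at matched totals, the 10 to 50 kb class made up 38.0% and 37.1% of the circRNAs expected at P30, against 32.8% and 31.9% at P14, so a difference was still seen at equal totals. The median span of the listed circRNAs was 12392 and 12237.5 bases at P30 and 10851.5 and 10647 bases at P14.

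**Figure D2:**
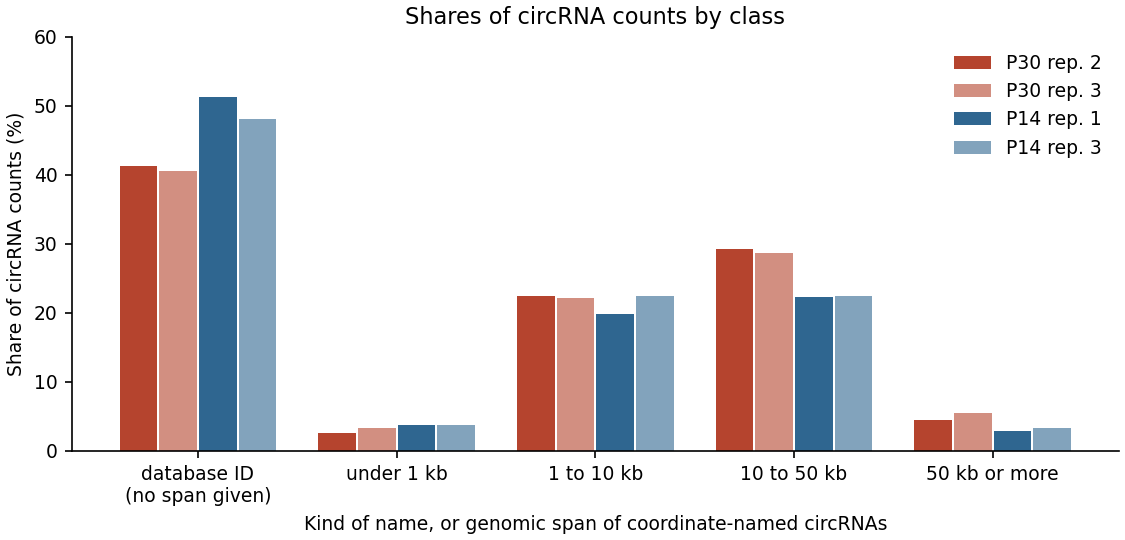
Share of all circRNA counts of a library (percent) held by circRNAs under a database ID and by coordinate-named circRNAs in 4 classes of genomic span. Bars are single libraries; the P30 bars are higher for spans of 10 to 50 kb and of 50 kb or more and lower for database IDs and spans under 1 kb, and they overlap with the P14 bars at 1 to 10 kb.

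CircRNAs with a database ID, that is, those already catalogued, lost share. They held 41.2% and 40.6% of the counts at P30, against 51.2% and 48.1% at P14. Without the 10 most abundant circRNAs the difference was −5.99 percentage points in place of −8.72, so the abundant ones carried part of it. By number at matched totals, database IDs were 23.9% and 23.2% of the circRNAs at P30 and 27.3% and 27.6% at P14.

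Among circRNAs with at least 10 counts in each of the 4 libraries, levels differed more between ages than between replicates. Over these 172 circRNAs, Pearson's r of log2(CPM) was 0.907 between the P30 libraries and 0.849 between the P14 libraries, while the 4 pairs across ages gave 0.751 to 0.771. CPM is a circRNA's count scaled to the same total in every library. The median distance of a circRNA from the typical log2 ratio was 0.32 within P30, 0.38 within P14 and 0.50 to 0.55 across ages. These are descriptions over circRNAs, which share libraries and depth.

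For single circRNAs, edgeR's quasi-likelihood test was run on the 327 that passed the filter on low counts, of which 323 stood above 0 at P30 or P14. These held 49.2% and 49.0% of the counts at P30 and 58.7% and 53.8% at P14, and the other 4742 members did not pass the filter. At a Benjamini-Hochberg adjusted p under 0.05, 9 of 327 (2.75%) were called between P30 and P14, with 7 rises (2.14%) and 2 falls (0.612%). All 9 had the same adjusted p of 0.0245 from edgeR, and 44 had an unadjusted p under 0.05. DESeq2 called 15 (4.59%), with 7 rises and 8 falls, and 8 of the 9 were among them. The median log2 fold change of the 327 was 0.01 after scaling by trimmed mean of M-values (TMM), with quartiles of −0.59 and 0.58. On CPM, the 266 listed in all 4 libraries had a median log2 ratio of −0.28, against 0.06 in the fit. Scaling by the totals of the tested circRNAs, not of all circRNAs, gave 7 rises and 5 falls. After TMM scaling both P30 values lay above both P14 values for 90 of the 327 (27.5%) and below them for 73 (22.3%), whereas on CPM these numbers were 53 (16.2%) and 114 (34.9%).

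**Figure D3:**
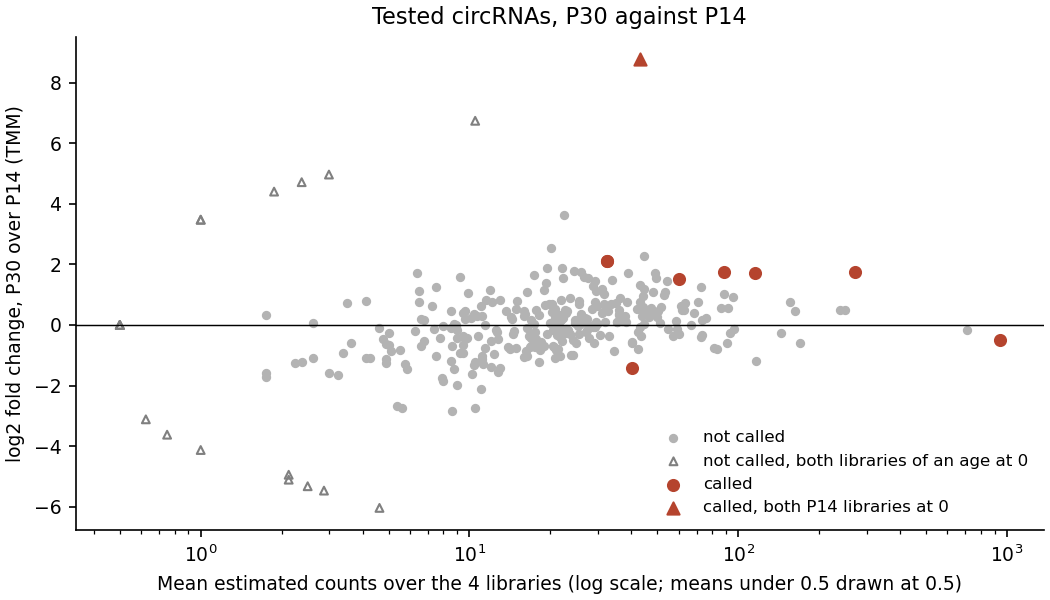
Fitted log2 fold change (P30 over P14, TMM scaling) against the mean estimated counts over the 4 libraries for the 327 tested circRNAs. Filled red symbols are the 9 called at an adjusted p under 0.05 (2 of them lie on the same point), and triangles mark circRNAs at 0 in both libraries of an age, whose fitted values depend on the prior count.

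These 9 calls were fragile. None was made without P14 replicate 3, P30 replicate 2 or P30 replicate 3, nor without P7 replicate 2, and only 1 without P14 replicate 1 (none of the 9) or P1 replicate 1. In 20 draws that thinned the 4 libraries to 11723 counts the number of calls ran from 0 to 6, with a median of 0.

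The clearest appearance at P30 was that of chr15:68825482-68879891 (mm9, plus strand), with a span of 54.4 kb. It had 79 and 93.5 counts in the P30 libraries, against 0 in both P14 libraries. Before P14 it was listed once, with 8.5 counts in P1 replicate 1. At P30 it averaged 3037 ± 319 CPM (SD, n = 2), and it was called as a rise (adjusted p = 0.0245 from edgeR), though DESeq2 gave an adjusted p of 0.525. It passed the low-count filter through P30 alone, so the call adds no support to these counts. No fold is given against a group listed at 0.

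It was not alone at its start. A further 3 circRNAs shared the position 68825482 and ended nearer, with spans of 22.4, 29.8 and 34.9 kb. The 34.9 kb circRNA had 34.5 and 22.5 counts at P30, against 0 and 4 at P14. The 22.4 kb circRNA had 20 and 13.5 counts at P30, and the 29.8 kb circRNA 5 and 20.5, and both were at 0 in the P14 libraries. Over all 5 circRNAs linked by a shared end, the locus had 142.5 and 150 counts at P30, against 0 and 4 at P14. No library before P30 had more than 8.5 counts in the whole locus.

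The most abundant of the called rises was chr4:102732223-102745448 (minus strand, 13.2 kb). It had 425.5 and 495 counts at P30 (15140 and 17273 CPM), against 92 and 78 at P14 (7814 and 4575 CPM). Both P30 values lay far above both P14 values, although the P14 libraries differed between themselves. Its log2 fold change was 1.75 (standard error 0.365, adjusted p = 0.0245 from edgeR). At E18.5, P1 and P7 it never exceeded 12 counts, so its level was higher at P14 than before and higher again at P30.

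On chromosome 4, too, other circRNAs used the same end. The second most abundant, of 24.6 kb span, had 66 and 64.5 counts at P30 against 9 and 16 at P14. In all, 16 circRNAs were linked by shared ends there, and 10 and 11 of them were listed at P30 against 4 and 6 at P14. These numbers are as deposited and depend on depth, since many of the members had few counts. The leading circRNA held 80.0% and 83.2% of the counts of the locus at P30, against 85.2% and 72.6% at P14. Its part in the locus thus overlapped between ages while the locus as a whole had 532 and 595 counts at P30, against 108 and 107.5 at P14.

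The circRNA chr5:151406752-151411015 (minus strand, 4.26 kb) followed a like course. It had 195 and 191.5 counts at P30, against 32 and 43 at P14. Its level was 6810 ± 181 CPM at P30 and 2620 ± 138 CPM at P14 (SD, n = 2 each), with little spread within either age. The log2 fold change was 1.71 (standard error 0.380, adjusted p = 0.0245 from edgeR). At the earlier ages it had from 0 to 18 counts, highest at P7.

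The other 4 rises, all with database IDs, had a different history, because the mean CPM of each was lowest at P14. mmu_circ_0000628 had 115.5 and 82.5 counts at P30, against 19.5 and 24 at P14. On CPM it averaged 3494 ± 870 at P30 and 1532 ± 176 at P14 (SD, n = 2 each), while both E18.5 libraries had stood higher, at 6963 and 6945 CPM. Its log2 fold change between P30 and P14 was 1.5 (standard error 0.315, adjusted p = 0.0245 from edgeR).

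mmu_circ_0000629 had 125.5 and 172 counts at P30, against 14 and 43.5 at P14. On the CPM scale it had 4465 and 6002 at P30 and 1189 and 2552 at P14, so the groups did not overlap although the P14 libraries were far apart. The log2 fold change was 1.75 (standard error 0.400, adjusted p = 0.0245 from edgeR). At E18.5 it had 5828 and 7507 CPM, a range that overlapped with that at P30.

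mmu_circ_0001124 and mmu_circ_0001125 had identical values in all 10 libraries, and the same counts may stand under both IDs. Either had 62.5 and 51 counts at P30, against 9.5 and 6.5 at P14. The level of 2002 ± 314 CPM at P30 compared with 594 ± 301 CPM at P14 (SD, n = 2 each), while the 6 earlier libraries lay between 2441 and 3410 CPM. The log2 fold change was 2.12 (standard error 0.470, adjusted p = 0.0245 from edgeR). Taken as 1 circRNA, the pair was on CPM still lowest at P14 and not highest at P30. TMM factors were 1.08 to 1.17 at the earlier ages and 0.806 and 0.788 at P30. The order of P30 and the earlier ages may thus differ after TMM scaling. The dip at P14 against the earlier ages was not tested.

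**Figure D4:**
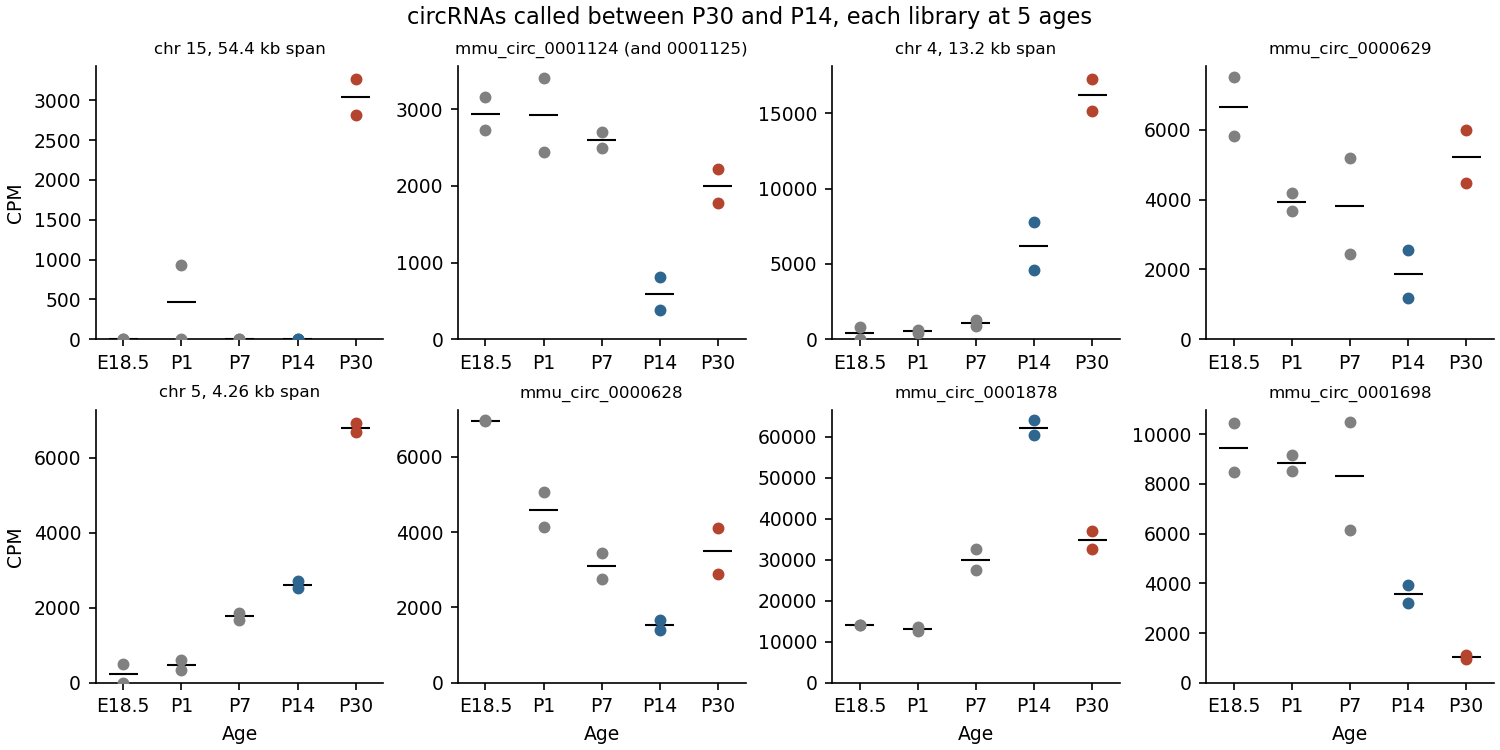
CPM of the circRNAs called between P30 and P14 at all 5 ages in order of time, with 1 point per library, a line at the mean (n = 2 per age) and mmu_circ_0001124 standing also for the identical mmu_circ_0001125. The circRNAs on chromosomes 15, 4 and 5 are highest at P30, mmu_circ_0001878 peaks at P14 and mmu_circ_0001698 is lowest at P30. The means of mmu_circ_0000628, mmu_circ_0000629 and mmu_circ_0001124 are lowest at P14, while for mmu_circ_0000629 the points at P7 and P14 overlap.

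Of the 2 falls, mmu_circ_0001698 was the larger. It had 27 and 32.5 counts at P30, against 46.5 and 55 at P14, in spite of the higher totals at P30. Its level was 1047 ± 123 CPM at P30 and 3588 ± 511 CPM at P14 (SD, n = 2 each), after 6139 to 10504 CPM in the libraries of the earlier ages. The log2 fold change was −1.43 (standard error 0.316, adjusted p = 0.0245 from edgeR).

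The other fall was that of mmu_circ_0001878, the most abundant circRNA of the 4 libraries. It had 1040 and 932.5 counts at P30, against 753.5 and 1031.5 at P14. The counts overlapped between ages, whereas the CPM did not, with 37005 and 32539 at P30 and 64000 and 60506 at P14. Relative to the other tested circRNAs it fell by 0.51 on the log2 scale (edgeR, standard error 0.115, adjusted p = 0.0245). Of 24 alternatives only 6 kept this call.

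Of the 10 most abundant circRNAs, only mmu_circ_0001878 and the chromosome 4 circRNA were called. mmu_circ_0000723, next in abundance, had 876.5 and 778 counts at P30, against 513 and 665.5 at P14. Its level was 29167 ± 2860 CPM at P30 and 41305 ± 3210 CPM at P14 (SD, n = 2 each), yet its log2 fold change relative to the other tested circRNAs was −0.17 (standard error 0.0842, adjusted p = 0.416 from edgeR). mmu_circ_0001692 had 324 and 331.5 counts at P30 and 137 and 160.5 at P14, and its CPM overlapped between the ages. mmu_circ_0000595, with 336.5 and 356 counts at P30 against 173 and 129 at P14, overlapped on CPM as well. mmu_circ_0001350 had 153 and 192 counts at P30, against 130 and 203 at P14, with 5444 and 6700 CPM at P30 below 11042 and 11908 CPM at P14 (log2 fold change −0.59, adjusted p = 0.187 from edgeR). DESeq2 called this fall (adjusted p = 0.0341), the only alternative that did, and the highest adjusted p over the alternatives was 1.00. mmu_circ_0001757 had 79.5 and 108.5 counts at P30, against 105 and 171.5 at P14, and its log2 fold change was −1.19 (edgeR, standard error 0.456, adjusted p = 0.215). Of its alternatives, only the edgeR fit without the unnumbered E18.5 replicate called this fall (adjusted p = 0.0324, with the highest at 1.00).

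Other circRNAs had groups that did not overlap but were not called in the main fit. mmu_circ_0001066 had 81.5 and 77 counts at P30, against 12 and 7.5 at P14 (log2 fold change 2.29, standard error 0.707, adjusted p = 0.135 from edgeR). It was called in 2 of 24 alternatives. The circRNA chr1:180253265-180266289 (minus strand) had 43.5 and 43 counts at P30, against 3.5 and 0 at P14 (adjusted p = 0.215 from edgeR, with a call in 1 of 24 alternatives). It was at 0 in all 6 earlier libraries. The circRNA chr3:132725530-132747989 (minus strand) had 28.5 and 13.5 counts at P30, against 0 in both P14 libraries, and was listed in 5 of the 6 earlier libraries with 3.5 to 10.5 counts. It was not called in the main edgeR fit (adjusted p = 0.101). Of 24 alternatives 3 called it, DESeq2 among them (adjusted p = 0.0212), with adjusted p from 0.0112 to 0.856 over the alternatives.

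In the other direction, mmu_circ_0001239 had 7.5 and 0 counts at P30, against 20 and 14.5 at P14 (log2 fold change −2.73, adjusted p = 0.201 from edgeR). It was called in 1 of 24 alternatives, that without circRNAs at 0 in 1 replicate and well counted in its partner (adjusted p = 0.019, with the highest at 0.756). Its log2 fold change was −1.73 without P30 replicate 3. Without P30 replicate 2 it was −6.99, but the only P30 value was then 0, so that value depends on the prior count. mmu_circ_0001704 had 6.5 and 5 counts at P30, against 10.5 and 22 at P14 (adjusted p = 0.224 from edgeR). Both had groups that did not overlap on CPM. Neither reached 25 counts in any of the 10 libraries.

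CircRNAs listed in both libraries of an age and in neither of the other had their highest counts at P30, where the totals were larger. After the 54.4 kb circRNA of chromosome 15, the highest was chr5:34753230-34809096 (plus strand), with 33 and 19.5 counts at P30 against 0 in both P14 libraries. It was followed by chr3:152082979-152091811 (plus strand), with 20.5 and 23 counts at P30 and 0 in every earlier library, P14 included. Another circRNA with the same start ended close by, at 152091796. That circRNA had 41 and 33 counts at P30 and 7 and 21 at P14, and was not called (adjusted p = 0.472 from edgeR). In reverse the counts were smaller, but apart from the chromosome 15 circRNA the mean CPM was of similar size. The highest was chr8:79882446-79889059 (minus strand), with 0 counts in both P30 libraries against 6.5 and 17.5 at P14. mmu_circ_0001670 had 0 in both P30 libraries against 9 and 9.5 at P14. Their means at P14 were 789 and 661 CPM, against 927 and 766 CPM at P30 for the chromosome 5 and 3 circRNAs above.

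By class, the tested circRNAs gave no more than a few calls each. Of 178 with a database ID 4 rose and 2 fell, with a median log2 fold change of 0.05, and of 149 with coordinates 3 rose and none fell (median −0.04). The median was −1.03 over the 11 tested circRNAs with spans under 1 kb, −0.19 over 65 of 1 to 10 kb, 0.16 over 66 of 10 to 50 kb and 1.18 over 7 of 50 kb or more, beside 0.01 over all 327. With scaling by the totals of the tested circRNAs these 4 medians were −1.16, −0.33, 0.03 and 1.04. The classes under 1 kb and of 50 kb or more hold few circRNAs. A circRNA could pass the low-count filter through P30 alone, as the 54.4 kb circRNA of chromosome 15 did, so these medians are descriptions and support nothing.

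In all, 50.3% of the coordinate-named members shared a start or an end with another member on the same strand. They fell into 712 loci of 2 or more circRNAs, of which 152 had 4 or more and the largest had 23. Only 26 loci had at least 20 counts in each of the 4 libraries. In these the leading circRNA held a median of 65.2% of the locus at P30 and 68.3% at P14, and the median difference was −2.08 percentage points, from −16.3 to 24.0. The share of the leading circRNA was higher in both P30 libraries than in both P14 libraries in 5 loci and lower in 4, so most loci overlapped.

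The leading circRNA changed between ages in 1 of the 26 loci. The circRNAs chr9:3441055-3460131 (19.1 kb) and chr9:3441055-3477962 (36.9 kb), both on the plus strand, share their start. The shorter had 50.5 and 41 counts at P30, against 12.5 and 14 at P14. The longer had 14 and 22 counts at P30, against 19.5 and 18 at P14. The shorter held 78.3% and 52.6% of the locus at P30 and 39.1% and 43.8% at P14. Neither was called (adjusted p = 0.347 for the shorter and 0.695 for the longer from edgeR).

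**Figure D5:**
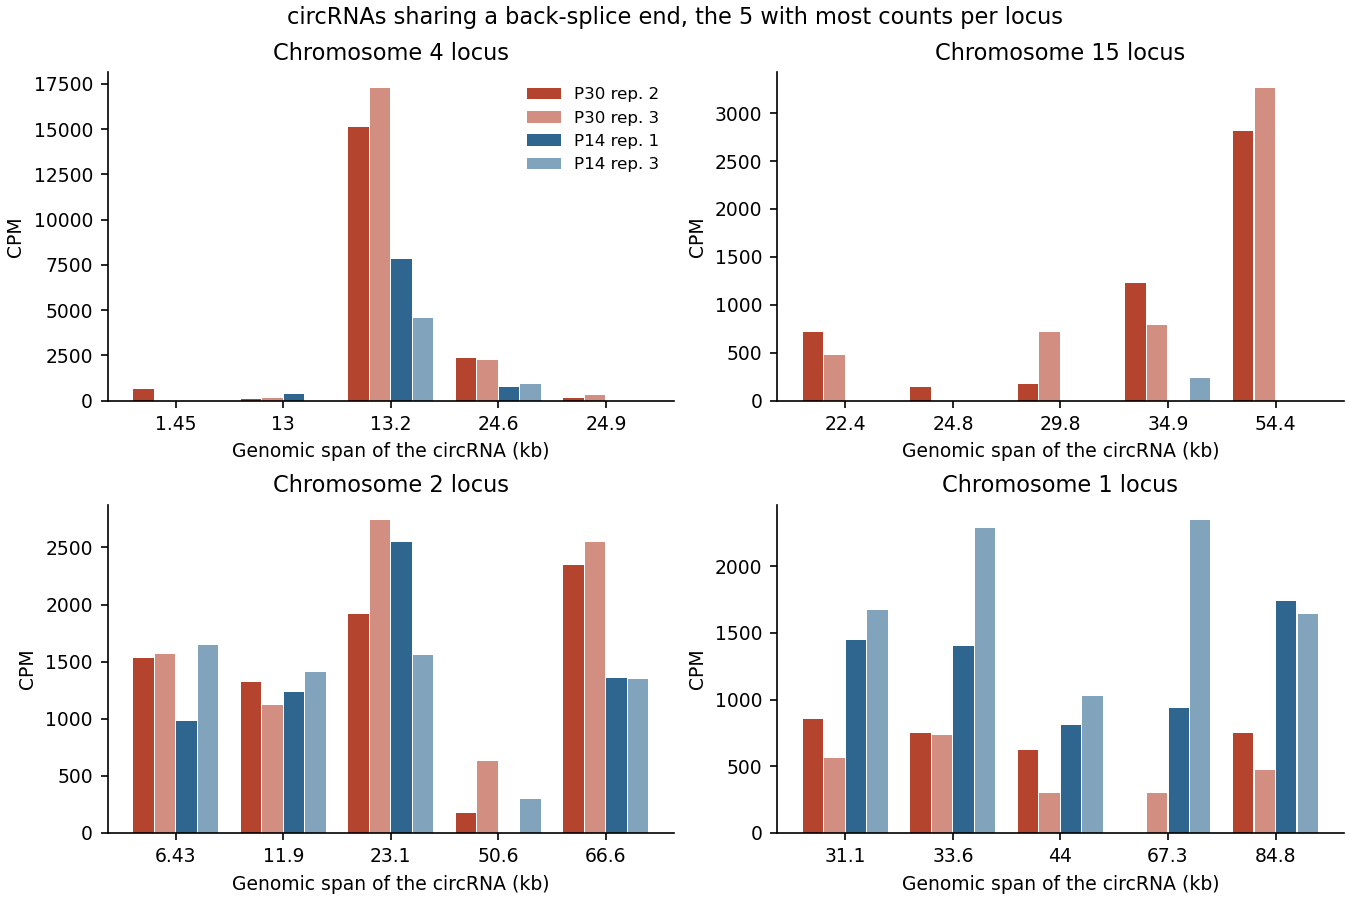
CPM in each P30 and P14 library of the 5 circRNAs with most counts in 4 loci, ordered by genomic span (kb). The 13.2 and 24.6 kb circRNAs of the chromosome 4 locus, the 54.4 kb circRNA of the chromosome 15 locus and the 66.6 kb circRNA of the chromosome 2 locus are higher in both P30 libraries, and in the chromosome 1 locus the 5 circRNAs shown are lower in both P30 libraries.

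Among the loci with the most counts, chr10:25161379-25232887 (plus strand, 14 circRNAs) had 441.5 and 376 counts at P30, against 126.5 and 184.5 at P14. Its leading circRNA, of 2.38 kb, had 244.5 and 209.5 counts at P30 and 76.5 and 94 at P14 (log2 fold change 0.76, standard error 0.283, adjusted p = 0.215 from edgeR). The locus chr14:52738871-52778129 (plus strand, 15 circRNAs) had 323 and 308.5 counts at P30, against 190.5 and 204 at P14. Its leading circRNA, of 13.4 kb, had 4127 and 3838 CPM at P30 and 5266 and 5690 CPM at P14, and edgeR gave a log2 fold change of −0.13 (adjusted p = 0.936).

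In the chromosome 2 and chromosome 1 loci no circRNA was called. In chr2:37436193-37502805 (minus strand, 12 circRNAs) the longest circRNA, of 66.6 kb, had 66 and 73 counts at P30, against 16 and 23 at P14. It was not called (adjusted p = 0.215 from edgeR). The leading circRNA of the locus, of 23.1 kb, had 1921 and 2739 CPM at P30 and 2548 and 1554 CPM at P14, which overlap (log2 fold change 0.56, adjusted p = 0.656 from edgeR). The 11.9 kb circRNA overlapped too, with 1317 and 1117 CPM at P30 and 1232 and 1408 CPM at P14. The circRNA of 6.43 kb at the same end had 43 and 45 counts at P30 and 11.5 and 28 at P14, and its CPM overlapped between ages. The locus chr1:4153936-4302803 (minus strand, 22 circRNAs) had 137.5 and 113.5 counts at P30, against 120 and 261.5 at P14, in spite of the higher totals at P30. It was at 0 throughout E18.5 and P1 and had 58 and 40.5 counts at P7. Its leading circRNA, of 33.6 kb, had 747 and 733 CPM at P30 and 1401 and 2288 CPM at P14 (log2 fold change −0.99, standard error 0.642, adjusted p = 0.585 from edgeR). Loci were not tested as sums.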

How the data were processed

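Libraries of ribosome-depleted total RNA from retinae of 5 ages, 2 per age, were compared. The deposited table holds estimated counts per circRNA made by the authors, in steps of 0.5 with none between 0 and 2 and without normalization. The submitters' processing notes name Trimmomatic and mm9, and the circRNA caller is not given in the sources used here. Starts in the names were taken to count from 0 and are printed 1-based, since 158 of 8054 matched an exon start after adding 1 and 1 as written. The exons were of an annotation of another build than mm9. These numbers therefore do not give the share of circRNAs that start at an exon start. For E18.5, 1 column has a number that matches no label, so it served as an unnumbered replicate of that age.

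Values were rounded to whole numbers (0.5 to the even number), kept where filterByExpr, grouped by age, passed them (count 10, total 15 as minima), TMM-scaled, and fitted with edgeR 4.0.16 (glmQLFit, glmQLFTest; R 4.3.3) over all 10 libraries with age as a factor (5 residual degrees of freedom). The contrast was P30 minus P14. Matched totals used expected values of sampling without replacement, and 20 thinned draws for the test. Loci are coordinate-named circRNAs on 1 strand linked by an identical start or end. DESeq2 1.42.0, other scalings and filters and each library left out were alternatives. In simulated P30 against P14 data 259 circRNAs passed the filter, and the rates are of these alone. Called were 14.8% of 27 changed 2-fold, 57.9% of 38 changed 4-fold, 97.6% of 42 changed 8-fold and 1.97% of 152 unchanged. The simulation gave every circRNA the same spread (dispersion 0.125), so these rates may not hold for circRNAs with a larger spread.

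Named were the called circRNAs, the largest rises and falls with a mean of at least 10 counts and no overlap, the 10 most abundant, those highest in 1 age and at 0 in the other, and the largest and switching loci. Fewer are printed. Members and rules were chosen with earlier results of these data known. Tables and plots were made in Python 3.11.15 with pandas 2.3.3, numpy 2.4.6, matplotlib 3.10.9 and scipy 1.17.1.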

Additional observations from a re-analysis of the deposited data

How the results depend on the processing

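The number of circRNAs called between P30 and P14 was 9. It was 4 with no low-count filter, 2 in the fit of the P14 and P30 libraries alone and 15 with DESeq2 (7 higher and 8 lower). It was 0 with a minimum of 10 counts throughout an age (93 at an unadjusted p under 0.05 from edgeR), with the filter set on the P14 and P30 libraries (57), with an absolute log2 fold change above 1 asked for (23) and as the median of the thinned draws (40). In a fit of the 9 libraries that carry a number, with a replicate block, it was 0 (32 at an unadjusted p under 0.05). P30 and P14 share only number 3, and the differences between replicates 2 and 1 at P1 and at P7 had a correlation of 0.017 over the tested circRNAs. For number 3, the difference from the other replicate at P30 and that at P14 had a correlation of −0.005. Pairing was thus not shown. When circRNAs were dropped that had 0 in 1 replicate of an age but 10 counts or more in its partner, an alternative chosen after seeing the data, it was 22. With 1 library left out it ranged from 0 to 11. These fits passed 483 to 537 circRNAs, since the filter then asks for fewer libraries, and the lone library of an age borrows its spread from the other ages. RLE factors, totals of the tested circRNAs, unrounded values, 0.5 rounded up (chosen after seeing the data) and merged identical circRNAs gave 7 to 12 calls.

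The ratio of circRNAs listed was 1.19 at matched totals, against 1.74, and ranged from 1.54 to 2.00 with 1 library left out. In percentage points, without the 10 most abundant circRNAs the difference in share was −5.99 for database IDs (main −8.72), 5.24 for spans of 10 to 50 kb (main 6.57) and −0.422 for the plus strand among coordinate-named circRNAs (main −1.15). By number of circRNAs it was −1.40 for spans under 1 kb (main −0.796), −1.67 for the plus strand and 16.0 for circRNAs at 0 in all 6 earlier libraries (main 8.14). By number at matched totals, added after seeing the data, it was 8.57 for the last, −3.91 for database IDs, −1.80 for spans under 1 kb, −0.996 for 1 to 10 kb (main 1.10), 5.21 for 10 to 50 kb and −1.71 for the plus strand. As shares of coordinate-named counts, also added later, it was −2.46 under 1 kb, −4.31 for 1 to 10 kb and 4.54 for 10 to 50 kb. With 1 library left out the differences ran from −10.3 to −7.18 for database IDs and −1.38 to −0.929 for the plus strand. For circRNAs at 0 in all 6 earlier libraries they ran from 6.65 to 9.64. By span they ran from −1.15 to −0.440 under 1 kb, −0.220 to 2.41 for 1 to 10 kb, 6.20 to 6.95 for 10 to 50 kb and 1.36 to 2.34 for 50 kb or more. As deposited, the share of the most abundant circRNAs differed by −3.95 for 10, −2.75 for 1, −4.95 for 50 and −5.00 for 100. The log2 fold change of the leading circRNA of the chromosome 14 locus was −0.13, was 0.01 without P14 replicate 3 and ranged from −0.26 to 0.01 with 1 library left out. Among named circRNAs under all alternatives, 117 values lost a call and 9 gained one. The cause of these changes was not tested.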

Other observations

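A few circRNAs were well counted in 1 of the 4 libraries and at 0 in the others, and they were picked after their values were seen. Of the circRNAs listed in 1 library only, 48 had at least 10 counts and 2 had at least 20. The highest, chr9:122041011-122046719 (plus strand), had 175.5 counts in P14 replicate 3 and 0 in all 9 other libraries, and mmu_circ_0000989 had 40 counts in P30 replicate 2 and 0 in all others.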
